A study of Mus musculus with 10 samples.

Results

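The hedgehog receptors and Gli effectors considered here are 9 genes, *Cdon*, *Boc*, *Gas1*, *Ptch1*, *Smo*, *Sufu*, *Gli1*, *Gli2* and *Gli3*, which were taken by symbol from a table of 14300 genes. All 9 were in the table and passed the filter on low counts. RNA was sequenced from embryonic *Grem1*-reporter mice on the C57BL/6J background, *Grem1creERT; Rosa26LSLTdtomato*, which carry a transgenic tamoxifen-inducible Cre driven by *Grem1* regulatory sequences together with a Cre-dependent TdTomato reporter at the *Rosa26* locus. Both groups are given with this genotype and with tamoxifen at E13.5, 24 h before collection at E14.5, and they differ in the sort gate, which was set with littermates lacking Cre. TdTomato+ cells are those in which Cre had been active, with their progeny, and TdTomato− cells are the remaining live cells of the same dissection, a mixture of types. There were 5 libraries of each population, with 1 TdTomato+ and 1 TdTomato− library for each of mice 2 to 6, and whether embryos were pooled under a mouse number is not given in the sources used here.

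Hedgehog ligands are secreted proteins that bind Ptch1, a transmembrane receptor which, without ligand, holds the transducer Smo inactive. Cdon, Boc and Gas1 are cell surface coreceptors that present the ligand to Ptch1. Active Smo accumulates in the primary cilium and frees the zinc finger transcription factors Gli2 and Gli3 from their inhibitor Sufu. Gli2 serves mainly as an activator, Gli3 is largely cut to a repressor when the pathway is silent, and *Gli1* and *Ptch1* are themselves transcribed in response to the pathway. In the telencephalon Shh is made ventrally, where it favours ventral identities, and Gli3 is needed for the dorsal part from which the cortex forms.

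*Grem1* itself was at 63.3±3.10 counts per 1000000 counts of a library (CPM, with TMM scaling, mean±s.d., *n*=5) in TdTomato+ and 6.11±0.731 CPM in TdTomato− cells, in the direction of the labels. Total counts were 23429034 to 27286180 per library, and a count of 3, taken here as the floor, corresponds to 0.104 to 0.136 CPM. TdTomato− libraries also held markers of other cells. Summed over the list, 9 radial glia markers were at 1692 to 1994 CPM in TdTomato− and 132 to 183 CPM in TdTomato+ libraries. The corresponding ranges were 1493 to 1853 and 53.5 to 85.6 CPM for 9 markers of the ventral telencephalon, and 646 to 839 and 40.9 to 65.0 CPM for 5 markers of intermediate progenitors. Markers of blood and microglia reached 73.0 to 256 CPM in TdTomato− libraries (1.68 to 17.9 CPM in TdTomato+), and the 4 of 7 endothelial and pericyte and 2 of 7 meningeal markers in the table summed to at most 17.7 and 5.29 CPM.

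All 9 genes were lower in TdTomato+ than in TdTomato− cells at an adjusted *P* of 0.05 or less (edgeR quasi-likelihood F-test with the mouse as a block, Benjamini-Hochberg adjustment over 14300 genes), and each was lower in 5 of 5 mice. Of all genes tested, 39.4% were called lower and 37.9% higher by the same rule. The 9 genes differed widely in how far they fell. *Gas1*, *Smo*, *Gli1*, *Gli2* and *Gli3* were at 3.54% to 9.29% of their TdTomato− level and also passed the second threshold, a log2 fold change of −2 or beyond in either direction, which 9.74% of all genes passed in this direction and 3.2% in the other. *Cdon*, *Boc*, *Ptch1* and *Sufu* were at 38.7% to 66.6% of their TdTomato− level and did not pass it. The median log2 fold change was −3.47 over the 9 genes and −0.01 over all genes. In 8 of the 9 genes the CPM of the populations did not overlap, against 32.4% of all genes that were lower without overlap. In bulk libraries, fewer cells with a transcript and less of it per cell cannot be told apart.

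**Figure D1:**
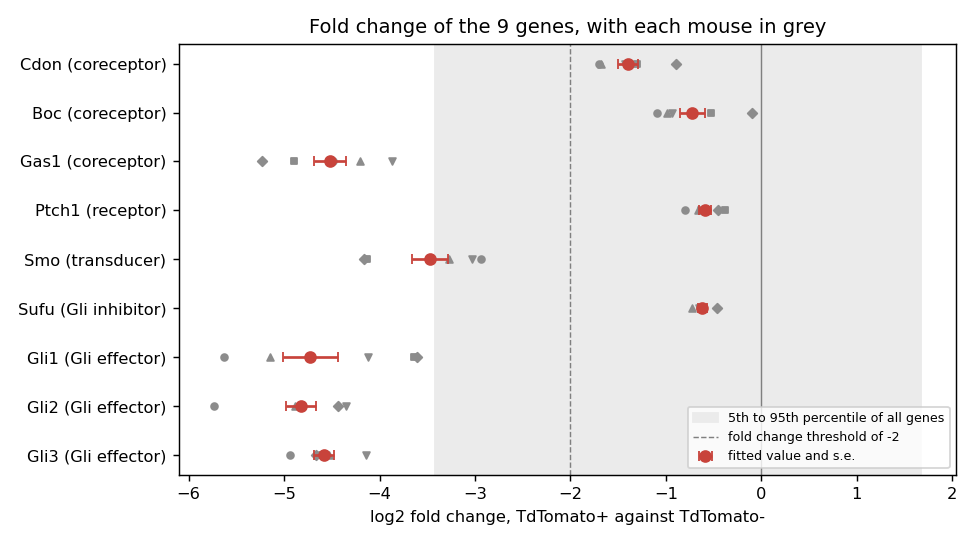
Log2 fold change of each of the 9 genes, TdTomato+ against TdTomato− cells. Red points with bars are the fitted values and their s.e., grey symbols are the differences of log2 CPM (prior count 2) in each of 5 mice, the shaded band runs from the 5th to the 95th percentile of all genes (−3.42 to 1.67), and the dashed line marks −2. The fitted values of *Gas1* and the *Gli* genes lie to the left of the band, and those of *Cdon*, *Boc*, *Ptch1* and *Sufu* between −1.40 and −0.59. *Smo* lies at the edge of the band (−3.47), with mice 2, 5 and 6 inside it (−2.94, −3.28 and −3.04).

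The coreceptor genes parted from each other. *Cdon* encodes an immunoglobulin and fibronectin repeat protein of the cell surface (ENSMUSG00000038119, GRCm38 chr9:35421128-35507652, plus strand). It was at 209, 261, 211, 225 and 205 CPM in the TdTomato− libraries of mice 2 to 6, in that order, and at 64.0, 106, 114, 70.3 and 76.4 CPM in their TdTomato+ libraries. The ranges did not overlap, and among TdTomato+ libraries mice 3 and 4 were the highest. *Cdon* thus changed by −1.40±0.11 in log2 units (fitted value±s.e., with an adjusted *P* of 2.7e-06, edgeR). *Boc*, a close relative of *Cdon* with the same kind of repeats (ENSMUSG00000022687, chr16:44485049-44558897, minus strand), was at 73.8, 92.0, 76.8, 72.0 and 78.1 CPM in TdTomato− and at 34.6, 63.8, 72.0, 36.2 and 40.8 CPM in TdTomato+ libraries. Mice 3 and 4 were again the highest of the TdTomato+ libraries, and mouse 4 reached the lowest TdTomato− value, so that *Boc* was the 1 gene of the 9 whose ranges met. Its log2 fold change, −0.72±0.13 (s.e.), had an adjusted *P* of 8.6e-04 and was −0.88 without mouse 4.

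*Gas1* encodes a membrane-anchored coreceptor unrelated to these proteins (ENSMUSG00000052957, chr13:60174405-60177365, minus strand). It was at 76.8, 122, 97.2, 91.8 and 94.3 CPM in TdTomato− and at 3.36, 4.03, 2.52, 4.91 and 6.37 CPM in TdTomato+ libraries, far apart in every mouse. Its log2 fold change, −4.52±0.17 (s.e.), had an adjusted *P* of 2.5e-08 and ranked 295 of 14300 from the lowest. On a scale per length (RPKM, the CPM divided by the kilobases of exon), *Gas1* was 0.958 to 1.22 times as abundant as *Cdon* in TdTomato− libraries. In TdTomato+ libraries it was 0.0577 to 0.217 times as abundant. This ratio changed by −3.16±0.82 on the log2 scale (mean±s.d.) and was lower in all 5 mice. The ratio of *Cdon* to *Boc* was 1.52 to 1.80 among TdTomato− and 0.911 to 1.12 among TdTomato+ libraries, a smaller shift. Both comparisons were chosen after the values were seen, so no test is given. A gene on the opposite strand overlaps 19.9% of the exonic length of *Gas1*, and the strand setting of the counts is not given in the sources used here.

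**Figure D2:**
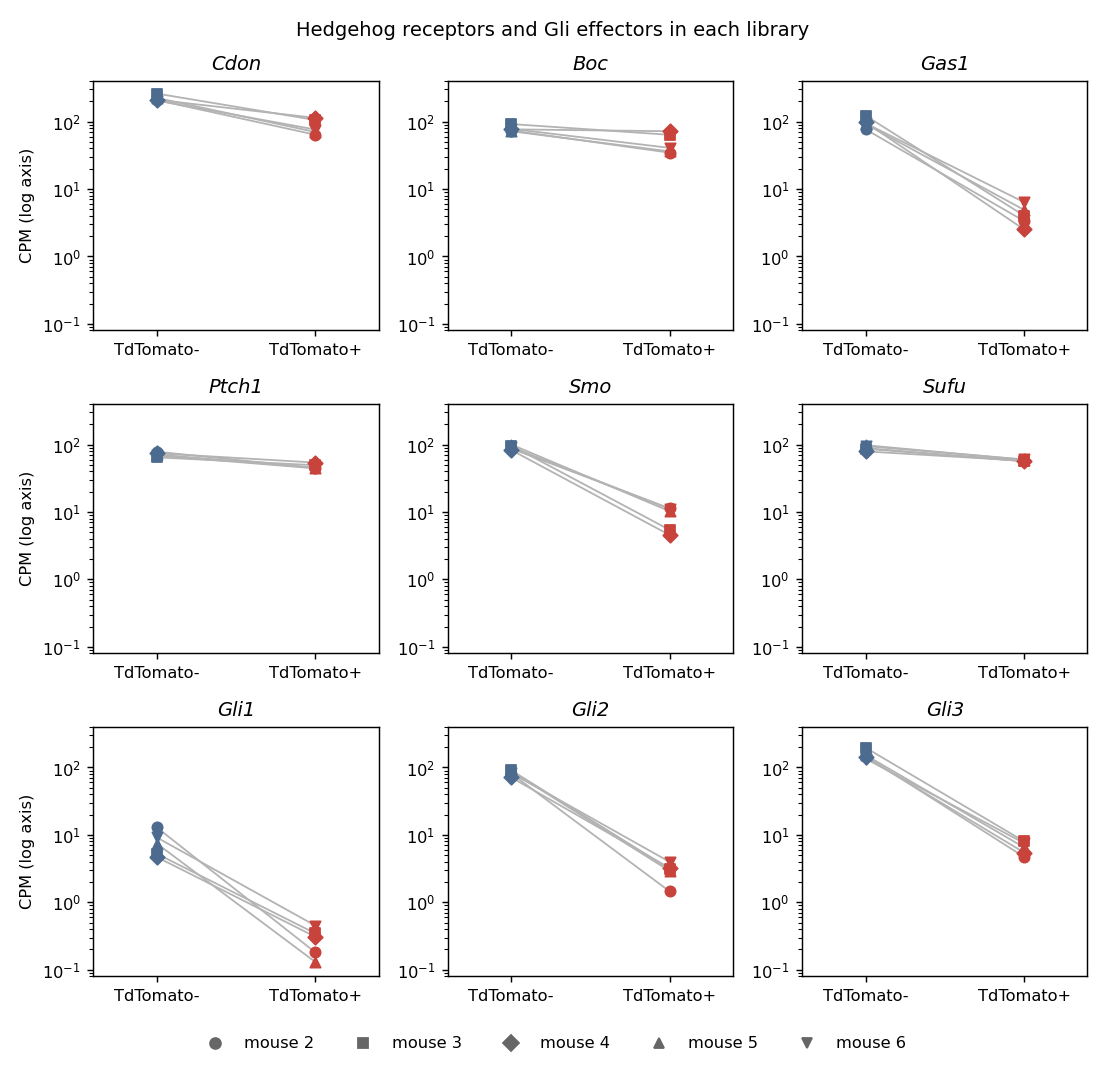
CPM (log axis) of each of the 9 genes in the TdTomato− (blue) and TdTomato+ (red) library of each mouse, with a symbol per mouse and a line joining its libraries. The lines are steep for *Gas1*, *Smo*, *Gli1*, *Gli2* and *Gli3* and shallow for *Ptch1* and *Sufu*, and the highest TdTomato+ values of *Cdon* and *Boc* are those of mice 3 and 4.

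*Ptch1* and *Smo*, the receptor and the transducer it restrains, were unequally reduced. *Ptch1* (ENSMUSG00000021466, chr13:63508328-63573598, minus strand) was at 78.3, 64.6, 74.3, 71.2 and 68.8 CPM in TdTomato− and at 45.1, 49.4, 54.0, 45.1 and 44.4 CPM in TdTomato+ libraries. The ranges were apart, but the fitted step between them was the smallest of the 9 genes, −0.59±0.06 in log2 units (s.e., with an adjusted *P* of 2.8e-05). *Sufu* was close to it (−0.62±0.05), and without mouse 3 their order turned (−0.64 for *Ptch1* and −0.62 for *Sufu*). *Smo* (ENSMUSG00000001761, chr6:29735503-29761365, plus strand) was at 87.3, 96.7, 83.0, 100.1 and 91.7 CPM in TdTomato− and at 11.3, 5.42, 4.55, 10.3 and 11.1 CPM in TdTomato+ libraries. It was lowest in the TdTomato+ libraries of mice 3 and 4, which had the highest *Ptch1*, *Cdon* and *Boc*. On the log2 scale *Smo* changed by −3.47±0.19 (s.e., adjusted *P* = 2.5e-07).

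Per length, *Smo* was 2.81 to 3.78 times as abundant as *Ptch1* in TdTomato− and 0.212 to 0.632 times in TdTomato+ libraries. The order of the pair was thus the opposite in the populations, in each of 5 mice, a comparison chosen after the values were seen and given without a test. In the TdTomato+ libraries of mice 3 and 4 this ratio was 0.277 and 0.212, and in the others 0.574 to 0.632. Of 6 deep-layer neuron markers, *Tbr1*, *Sox5* and *Bcl11b* were highest in these same libraries, while *Fezf2*, *Tle4* and *Foxp2* were lowest there (*Tle4* at 268 and 204 CPM, against 348 to 455 CPM). The sum of the list, to which the first 3 contribute most, was 5816 and 5499 CPM in mice 3 and 4 and 4770 to 5161 CPM in the others. Its part in the differences between mice was not tested.

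*Sufu*, the inhibitor that holds Gli proteins in the cytoplasm (ENSMUSG00000025231, chr19:46396896-46488804, plus strand), was the steadiest gene among TdTomato+ libraries. It was at 88.5, 86.4, 79.2, 97.9 and 94.7 CPM in TdTomato− and at 56.5, 56.7, 57.4, 59.3 and 60.2 CPM in TdTomato+ libraries. The populations were apart by a modest and even step, −0.62±0.05 in log2 units (s.e., with an adjusted *P* of 2.8e-06).

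The *Gli* genes encode the transcription factors at the end of the pathway, and all were scarce in TdTomato+ cells. *Gli2* (ENSMUSG00000048402, chr1:118834132-119053619, minus strand) was at 81.3, 90.7, 71.2, 88.2 and 82.9 CPM in TdTomato− and at 1.45, 3.12, 3.22, 2.91 and 3.98 CPM in TdTomato+ libraries. It had the largest fitted fall of the 9 genes, −4.82±0.16 in log2 units (s.e., with an adjusted *P* of 1.1e-08), and its lowest value was that of mouse 2. *Gli1* was close to it (−4.73±0.29), and without mouse 3 their order turned (−4.94 for *Gli1* and −4.82 for *Gli2*). *Gli3* (ENSMUSG00000021318, chr13:15463235-15730026, plus strand) led the *Gli* genes in abundance, with 147, 196, 141, 152 and 135 CPM in TdTomato− and at 4.72, 8.02, 5.47, 6.52 and 7.55 CPM in TdTomato+ libraries. It changed by −4.58±0.10 in log2 units (s.e., with an adjusted *P* of 2.2e-09), and its TdTomato+ value was also lowest in mouse 2.

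*Gli1* (ENSMUSG00000025407, chr10:127329882-127341974, minus strand), an activator whose transcription is a usual readout of hedgehog activity, was rare in both populations. It had 330, 152, 117, 188 and 263 counts in TdTomato− libraries, or 12.9, 5.25, 4.69, 7.45 and 9.16 CPM, and 4, 8, 7, 3 and 10 counts in TdTomato+ libraries. The TdTomato− values spread over a wider range, for their size, than those of any other of the 9 genes, with mouse 2 the highest and mice 3 and 4 the lowest. The fitted change was −4.73±0.29 in log2 units (s.e., with an adjusted *P* of 5.4e-07). Summed over mice, TdTomato+ libraries held 32 counts and TdTomato− libraries 1050, so that the TdTomato+ level was 3.60% of the TdTomato− level (95% exact interval of 2.45% to 5.12%, which covers counting error only). Genes on the opposite strand overlap 6.55% of its exonic length.

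The proportions of the *Gli* genes to each other were compared within mice. Per length, *Gli3* was 1.16 to 1.55 times as abundant as *Gli2* in TdTomato− cells and 1.22 to 2.33 times in TdTomato+ cells, a mean log2 change of 0.29±0.38 (s.d., *n*=5 mice), upward in 4 of 5 mice and 0.16 without mouse 2. The exact two-sided sign-flip permutation *P* was 0.188, or 0.563 adjusted over the 3 ratios compared. The smallest *P* that this permutation test allows with 5 pairs is 0.0625. It could therefore not reach 0.05 whatever the values, and it cannot decide whether the ratio shifted. The ratio of *Gli3* to *Gli1* changed by 0.24±0.98 and that of *Gli2* to *Gli1* by −0.05±0.73 on the log2 scale (exact permutation *P* of 0.625 and 0.812, each 0.812 after adjustment, *n*=5). Their s.d. were large beside the changes, with *Gli1* at 3 to 10 counts per TdTomato+ library. The direction of the *Gli2* to *Gli1* ratio turned without mouse 3 (0.17) or mouse 4 (0.07), and that of *Gli3* to *Gli1* without mouse 5 (−0.022). *Sufu* was at 0.549 to 0.877 times the level of *Gli3* in TdTomato− and at 8.82 to 14.9 times in TdTomato+ libraries, and at 0.851 to 1.02 and 13.5 to 34.8 times the level of *Gli2*, ratios computed after the values were seen and not tested. These ratios depend on the length used. With the longest transcript, *Sufu* was at 19.8, *Gli3* at 18.9 and *Gli2* at 12.5 RPKM in TdTomato− cells, so that *Sufu* was then the highest of these, while in TdTomato+ cells it was at 12.8 RPKM, against 0.790 and 0.443 RPKM.

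**Figure D3:**
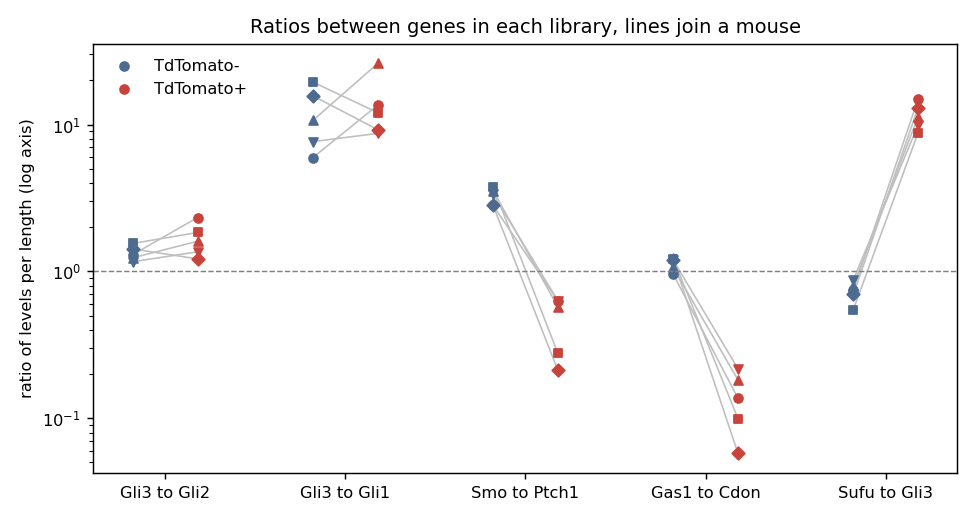
Ratios of levels per length between pairs of the 9 genes (log axis) in the TdTomato− (blue) and TdTomato+ (red) library of each mouse, with lines joining the libraries of a mouse and a dashed line at equal levels. *Gli3* to *Gli2* stays between 1.16 and 2.33 in all 10 libraries, *Smo* to *Ptch1* and *Gas1* to *Cdon* are lower in every TdTomato+ library, and *Sufu* to *Gli3* is higher.

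Markers of progenitor cells were low in the same libraries. The 9 radial glia markers were at 2.57% to 21.5% of their TdTomato− level in TdTomato+ cells, with a median of 6.04%, those of intermediate progenitors at a median of 6.32% and those of the ventral telencephalon at a median of 5.65%. *Gli1*, *Gli2*, *Gli3*, *Gas1* and *Smo* were at 3.60%, 3.54%, 4.18%, 4.39% and 9.29%. The part of these cell types in the differences was not tested, and cell type and reporter state cannot be told apart in sorted bulk libraries. Among the 9780 other genes with a mean log2 CPM of at least 3, those whose profile over the 10 libraries was most like *Gli3* were *Ccna2*, *Brca1* and *Kif20a* (Pearson's *r* of log2 CPM of 0.999 each), which act in DNA synthesis, repair and cell division. For *Gli2* they were *Tcf12*, *Anln* and *Cdca7* (0.999 each), for *Gas1* they were *Fam181b*, *Tfap2c* and *Dtl* (0.998, 0.997 and 0.997), for *Smo* they were *Plpp3*, *Irs1* and *Foxo4* (0.998, 0.997 and 0.997), and for *Gli1* they were *Zfp36l2*, *Unk* and *Acadm* (0.994, 0.993 and 0.992). *Sufu* was most like *Rela*, *Atxn1l* and *Zfp362* (0.995 each). These correlations are descriptions over the same 10 libraries, and the step between populations makes up most of each profile. They do not measure the size of the step. The log2 fold changes of *Ccna2*, *Brca1* and *Kif20a* (−4.60, −4.65 and −4.82) were near that of *Gli3* (−4.58). Those of *Unk* and *Acadm* (−0.72 and −1.04) were far from *Gli1* (−4.73), and those of *Irs1* and *Foxo4* (−1.65 and −1.70) from *Smo* (−3.47). *Tcf12* (−2.52) and *Fam181b* (−2.08) also fell less than *Gli2* (−4.82) and *Gas1* (−4.52).

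Compared per length, the levels of the 9 genes had a different order in each population. In TdTomato− cells *Gas1* was highest (32.6±5.57 RPKM), followed by *Cdon* (28.8±2.96 RPKM), and the ranges of this pair overlapped. *Boc* (17.6±1.78), *Smo* (16.3±1.23) and *Gli3* (16.1±2.54) followed with overlapping ranges, then *Gli2* (12.1±1.10) and *Sufu* (11.6±0.952), which also overlapped. *Ptch1* (5.04±0.368 RPKM) and *Gli1* (1.58±0.665 RPKM) were lowest, each apart from its neighbours. In TdTomato+ cells *Cdon* (11.2±2.89 RPKM), *Boc* (11.1±3.87) and *Sufu* (7.54±0.214) were highest, with overlap between neighbours, followed by *Ptch1* (3.36±0.290), which was apart from both its neighbours. *Smo* (1.52±0.582) and *Gas1* (1.43±0.501) overlapped, as did *Gli3* (0.673±0.144) and *Gli2* (0.428±0.134), and *Gli1* was last at 0.0568±0.0259 RPKM. *Gas1* thus moved from rank 1 to rank 6 and *Sufu* from rank 7 to rank 3. With the length of the longest transcript in place of all exons, *Sufu* ranked 4th in TdTomato− and 1st in TdTomato+ cells and *Boc* 6th and 3rd, while *Gas1* kept ranks 1 and 6.

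**Figure D4:**
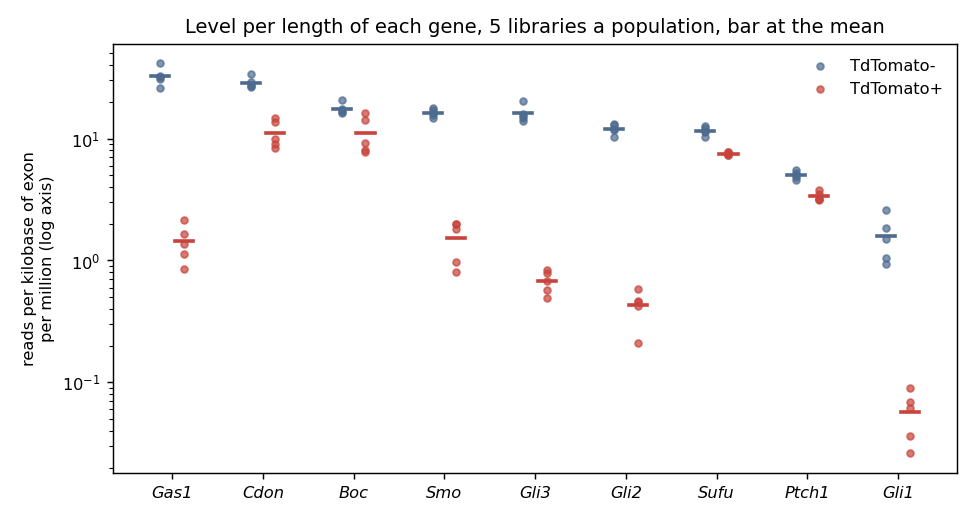
Level per length (RPKM, log axis) of each of the 9 genes in 5 TdTomato− (blue) and 5 TdTomato+ (red) libraries, ordered by the TdTomato− mean, with a bar at each mean. *Gas1* is highest in TdTomato− cells at 32.6 RPKM and at 1.43 RPKM in TdTomato+ cells, where *Cdon*, *Boc* and *Sufu* are the highest.

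Promoter sequences were examined because *Ptch1* is a classical Gli target and because the genes fell in unequal steps. RefSeq windows of 300 bases, from 250 before to 50 after the start site, were matched on GRCm38.p6 for 7 of the 9 genes, all but *Gli1* and *Boc*. The Gli consensus GACCACCCA was searched on both strands. None of the 7 windows held it exactly or with 1 mismatch, against 0.206% and 7.14% of the 13605 windows of genes in the counts table. Its absence says only that these letters are not in these windows. The 250 bases before the start site are shown for the genes whose stretch holds no annotated exon, *Gli2* (chr1:119053620-119053869, minus strand) and *Smo* (chr6:29735247-29735496, plus strand), which fell most of these, and *Sufu* (chr19:46396646-46396895, plus strand) and *Ptch1* (chr13:63565736-63565985, minus strand), which fell least. They run 5′ to 3′ along the gene, and capitals mark the most upstream of the 9-base windows closest to the consensus on either strand.
Gli2: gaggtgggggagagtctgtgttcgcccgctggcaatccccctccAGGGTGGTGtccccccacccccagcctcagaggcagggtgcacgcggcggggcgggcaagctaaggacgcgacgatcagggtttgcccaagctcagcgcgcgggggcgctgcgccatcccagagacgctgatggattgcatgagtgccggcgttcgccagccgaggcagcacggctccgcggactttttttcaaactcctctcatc
Smo: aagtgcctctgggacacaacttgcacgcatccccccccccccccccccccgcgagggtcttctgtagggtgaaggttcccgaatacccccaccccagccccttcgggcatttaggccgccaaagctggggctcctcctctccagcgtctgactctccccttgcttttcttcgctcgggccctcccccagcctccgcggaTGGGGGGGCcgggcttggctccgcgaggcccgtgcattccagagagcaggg
Sufu: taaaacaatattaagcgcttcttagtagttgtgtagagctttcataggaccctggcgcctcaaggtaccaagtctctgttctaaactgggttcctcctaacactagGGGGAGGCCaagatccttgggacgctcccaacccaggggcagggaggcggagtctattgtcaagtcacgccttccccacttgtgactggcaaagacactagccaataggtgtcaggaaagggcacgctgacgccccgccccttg
Ptch1: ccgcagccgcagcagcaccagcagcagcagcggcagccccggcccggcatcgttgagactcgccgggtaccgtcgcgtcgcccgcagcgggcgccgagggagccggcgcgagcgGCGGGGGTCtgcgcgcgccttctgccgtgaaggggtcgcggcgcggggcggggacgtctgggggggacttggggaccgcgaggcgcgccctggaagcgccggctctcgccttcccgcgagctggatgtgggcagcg

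The marked window differs from the consensus at 2 bases in *Gli2* and *Smo* and at 3 bases in *Sufu* and *Ptch1*, and 61.9% of the windows of genes in the counts table reach 2 mismatches or fewer. It begins 206, 51, 144 and 136 bases before the start site. The whole windows were 67.3%, 67.7%, 56.3% and 76.3% G and C, against a median of 61.0% for genes in the table, and held 28, 17, 12 and 47 CpG dinucleotides, against a median of 20. The start site of *Ptch1* shown is 1 of several, since its annotated gene extends further upstream.

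Of 81 other genes of the hedgehog pathway listed by role, 76 were in the table, and 26 were lower, 31 higher and 19 not called (edgeR, adjusted *P* of 0.05 or less). This is 34.2% lower and 40.8% higher, close to the shares of all genes, and the median log2 fold change was 0.02. Past the fold change threshold, 11 were lower, which is 14.5% of the list, and none was higher, beside 9.74% and 3.2% of all genes. The groups are described by role, and differences between them were not tested.

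Genes of ligand release held the largest rise on the lists. Of 6 in the table, 4 were higher and 2 lower, or 66.7% and 33.3%, beside 37.9% and 39.4% of all genes. *Disp2*, a relative of the protein that releases lipid-modified ligand from cells, rose from 89.0±8.42 to 324±11.4 CPM (log2 fold change 1.87, s.e. 0.05, adjusted *P* = 4.8e-09), with 308 to 339 CPM in TdTomato+ and 81.7 to 102 CPM in TdTomato− libraries. *Scube1* and *Scube3*, which encode secreted proteins of a family that carries released ligand, rose by 1.64 (s.e. 0.07) and 1.51 (s.e. 0.04), higher in 5 of 5 mice. *Disp1*, the releasing protein itself, was near the threshold (0.31, s.e. 0.13, adjusted *P* = 0.049, higher in 4 of 5 mice). It lost its call in 7 of 12 alternatives. These were the fits without mouse 3, 4 or 6, with upper-quartile scaling, with a stricter count filter, without the block and with robust estimation. The ligand *Shh* was rare, with 48, 100, 123, 52 and 55 counts in TdTomato− and 3, 21, 13, 9 and 6 counts in TdTomato+ libraries of mice 2 to 6. *Shh* changed by −2.65±0.25 in log2 units (s.e., with an adjusted *P* of 1.2e-05), and other genes overlap 28.4% of its exonic length. *Hhat*, which attaches palmitate to the ligand, fell by 1.67 (s.e. 0.25) on the log2 scale.

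Of 5 genes of feedback and ligand uptake, 4 were called lower and none higher, beside 39.4% and 37.9% of all genes. *Hhip*, a decoy receptor that is induced by the pathway, had 60 to 98 counts in TdTomato− and 1 to 6 counts in TdTomato+ libraries, −4.26±0.31 in log2 units (s.e., with an adjusted *P* of 1.6e-06). Summed over mice, its TdTomato+ level was 5.05% of the TdTomato− level (95% exact interval of 2.86% to 8.32%, counting error only). *Gpc3* (−3.18) and *Lrp2* (−2.53), a glypican and an endocytic receptor that bind hedgehog ligand, passed both thresholds, and *Gpc6* was at −1.99.

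Genes that act on Smo and Gli or build the cilium changed in both directions, mostly by small steps. Of 14 regulators of Smo, 3 were lower, 6 higher and 5 not called, with a median of 0.15, and 1 passed the fold change threshold. Higher calls made up 42.9% of this group, 36.8% of the regulators of Gli and 59.1% of the cilium genes, beside 37.9% of all genes, and lower calls 21.4%, 21.1% and 18.2%, beside 39.4%. The gene past the fold change threshold was *Evc*, a ciliary partner of Smo, which was at 21.4 to 23.8 CPM in TdTomato− and at 2.26 to 3.93 CPM in TdTomato+ libraries (−2.96, s.e. 0.13, adjusted *P* = 5.6e-08), whereas its partner *Evc2* was at −0.56 (s.e. 0.09). Of 19 regulators of Gli processing or turnover, 4 were lower, 7 higher and 8 not called, with a median of 0.02 and a range of −1.31 to 0.86. The lowest was *Kif7*, a ciliary kinesin that acts with Sufu on Gli proteins, at 21.0±1.51 and 8.49±1.09 CPM in TdTomato− and TdTomato+ cells, and other genes overlap 20.3% of its exonic length. The highest was *Spop*, an adaptor for the degradation of Gli proteins (0.86, s.e. 0.05). Of 22 genes of the primary cilium, 13 were higher, 4 lower and 5 not called, with a range of −0.78 for *Ift80* to 1.01 for *Kifap3*. *Kif3a*, *Kif3b* and *Kifap3*, subunits of the kinesin that drives ciliary and also axonal transport, were higher in 5 of 5 mice by 0.78, 0.48 and 1.01.

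**Figure D5:**
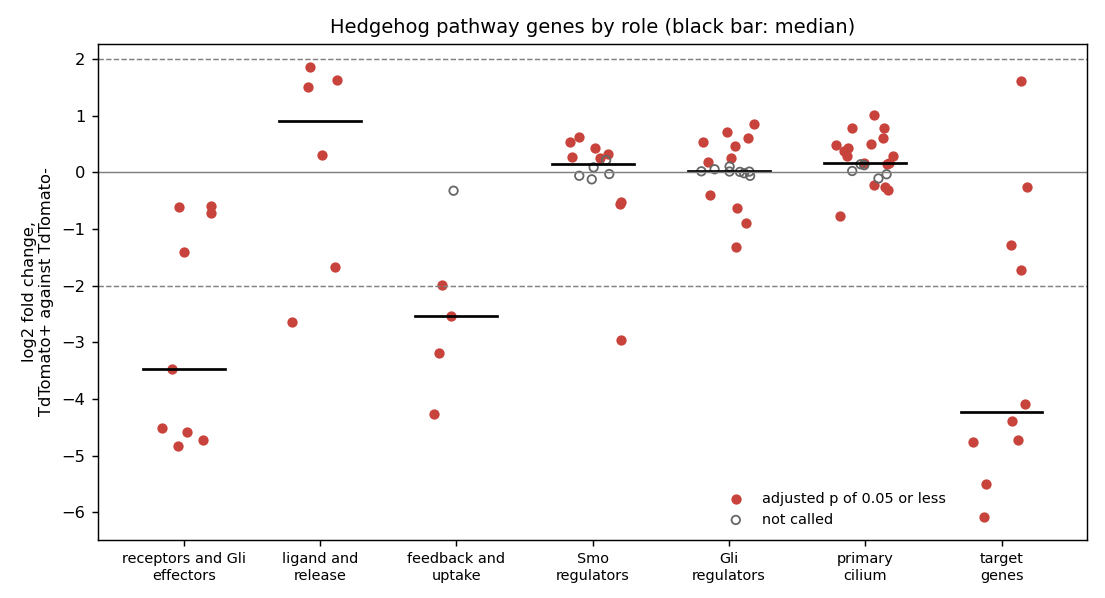
Log2 fold change (TdTomato+ against TdTomato− cells) of the hedgehog pathway genes in the table, grouped by role, with filled points for genes at an adjusted *P* of 0.05 or less, open points for genes not called, a black bar at the median of each group and dashed lines at −2 and 2. The medians are −3.47 for receptors and Gli effectors, −2.53 for feedback and uptake and −4.23 for target genes, against 0.91 for ligand and release and 0.15, 0.02 and 0.17 for Smo regulators, Gli regulators and the cilium.

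Of 12 listed genes that respond to hedgehog in some tissues, 10 were in the table, of which 9 were lower and 1 higher, with a median of −4.23. Past both thresholds were 6, or 60.0%, beside 9.74% of all genes, and lower calls made up 90.0%, beside 39.4%. The listed genes serve other pathways as well. *Nkx2-1* is also on the list of ventral telencephalon markers, and *Olig1* and *Olig2* were listed as markers of oligodendrocyte precursors. These shares are therefore not separate from the cell types in the libraries. *Ccnd1* and *Ccnd2*, cyclins of the G1 phase, fell by 4.76 (s.e. 0.12) and 4.38 (s.e. 0.11) on the log2 scale. *Olig2* (−6.09), *Olig1* (−4.72), *Nkx6-2* (−5.51) and *Nkx2-1* (−4.08), transcription factors of ventral progenitors, were also lower, and *Nkx2-1* was at 53.8 to 85.7 CPM in TdTomato− libraries. The study describes a dissection of the dorsal telencephalon and the sample descriptions name brain. *Sfrp1*, a secreted Wnt inhibitor, fell by 1.73 (s.e. 0.06). *Nkx2-2* and *Mycn* were called lower with adjusted *P* of 0.019 and 0.049 (edgeR). However, *Nkx2-2* lost its call in 2 of 11 alternatives, among them that without mouse 5. *Mycn* lost it in 6 of 12, among them those without mouse 3, 4 or 5. *Nkx6-2* rested on 2 counts in all TdTomato+ libraries against 138, 1.71% of the TdTomato− level (95% exact interval of 0.205% to 6.30%, counting error only). *Bcl2*, which protects from cell death, was the 1 gene that rose, from 31.0 to 38.2 CPM in TdTomato− to 93.7 to 119.9 CPM in TdTomato+ libraries (1.62, s.e. 0.05, adjusted *P* = 9.0e-09).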

How the data were processed

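Live TdTomato+ and TdTomato− cells were sorted from the dissected dorsal telencephalon (the sample descriptions say brain), and polyadenylated RNA was sequenced. The authors trimmed the reads, mapped them with STAR 2.4.2a to GRCm38, kept unique hits and deposited unnormalized gene counts of 10 libraries. Annotation release and strand column are not given in the sources used here. Symbols, positions and exonic lengths came from GENCODE for GRCm38, which matched 14271 of 14300 identifiers. Counts were fitted in edgeR 4.0.16 (R 4.3.3) by its quasi-likelihood F-test, with TMM scaling, filterByExpr (which removed no gene), the mouse as a block and a prior count of 0.125 and adjusted by the Benjamini-Hochberg method. Each mouse number carries both populations. The deviations of paired libraries from their group means correlated at 0.186 to 0.316, and those of libraries of different mice at −0.312 to 0.212. Log2 CPM used a prior count of 2. RPKM used all annotated exons. The s.e. is the fold change divided by the square root of F. Where separate embryos are not stated, *P* covers the spread between these samples, which may be technical. The 9 genes and the pathway lists were chosen with earlier results of these data known. Named pathway genes are those past both thresholds, the ligands, *Hhip* and others by list, and some genes are not reported here. Alternatives were RLE and upper-quartile scaling, DESeq2 1.42.0, other filters, no block, robust estimation, TREAT and each mouse left out.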

Additional observations from a re-analysis of the deposited data

Results flagged for a closer look

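For the 9 genes, the 28 other pathway genes named above and *Grem1*, 76 groups of 5 libraries were examined, and 4 had a library apart from the rest, close to the 3.8 that chance gives at 1 in 20. For *Ccnd1*, the TdTomato+ library of mouse 2 was lowest, at 0.62 log2 CPM against 1.74 to 2.13 in the others, a gap of 0.741 of the whole range. Among TdTomato− libraries, *Kif7* was lowest in mouse 4 (4.21 against 4.43 to 4.47 log2 CPM, a gap of 0.844 of the range). *Kif3a* was highest in mouse 2 (7.21 against 7.08 to 7.12, a gap of 0.742) and *Kifap3* in mouse 4 (7.51 against 7.33 to 7.38, a gap of 0.752). No group of *Gli1*, *Gli2*, *Gli3*, *Ptch1*, *Smo*, *Sufu*, *Boc*, *Cdon* or *Gas1* was set apart in this way.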

How the results depend on the processing

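All 9 genes were called lower, and 5 of them passed both thresholds, under RLE and upper-quartile scaling, DESeq2, other filters on low counts, robust estimation and each mouse left out in turn. Without the replicate block the counts were again 9 and 5, *Boc* was at −0.67 and *Gli2* at −4.82 on the log2 scale, and calls over all genes were 5450 lower and 5224 higher. *Boc* ranged from −0.88 to −0.63 over these alternatives, with an adjusted *P* of at most 0.0075, and *Gli1* from −4.94 to −4.39. Of 280 values recomputed for the 9 genes, the ratios and the counts of calls, 274 were classed as the same, 3 as moved and 3 as reversed. A count of calls could differ somewhat and still be classed as the same. Over all genes, 5185 were called lower with DESeq2 in place of 5632. A test against a log2 fold change of 2 itself (TREAT) called 1077 genes lower in place of 1393, classed as the same, and 273 higher in place of 457, classed as moved. With the longest transcript as length, 5 of 9 genes kept their rank in TdTomato− and 6 in TdTomato+ cells. With 1 mouse left out, the log2 change of *Gli3* to *Gli2* ran from 0.16 to 0.42, that of *Gli2* to *Gli1* from −0.29 to 0.17 (0.07 without mouse 4) and that of *Gli3* to *Gli1* from −0.022 (without mouse 5) to 0.49. Of the other named pathway genes, *Disp1*, *Mycn* and *Nkx2-2* lost their call under some alternatives, with adjusted *P* of 0.011 to 0.165, 0.0089 to 0.202 and 0.0063 to 0.262 over them. The number of counts limits the values of genes rare in TdTomato+ cells, among them *Gli1*, *Hhip*, *Shh*, *Nkx6-2*, *Nkx2-2*, *Olig1* and *Olig2*. In TdTomato+ libraries *Olig1* had 1 to 19, *Olig2* 7 to 19 and *Nkx2-2* 0 to 58 counts. The library kit and read length differ between the sources, and their bearing on the values was not tested.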

Other observations

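Among the TdTomato− libraries of mice 2 to 6, *Shh* was at 1.88, 3.46, 4.93, 2.06 and 1.92 CPM, while *Gli1* was at 12.9, 5.25, 4.69, 7.45 and 9.16 CPM. The libraries with the most *Shh*, those of mice 4 and 3, had the least *Gli1*. The library of mouse 2, with the least *Shh* by a few counts (48, against 52 and 55 in mice 5 and 6), had the most *Gli1*. *Hhip* and *Ptch1* did not follow this order throughout. Both were highest in mouse 2 (3.83 and 78.3 CPM), but next in mouse 4 (2.89 and 74.3 CPM), the library with the most *Shh*. In the others they were at 2.38 to 2.61 and 64.6 to 71.2 CPM. *Olig1*, like *Gli1*, was lowest in mice 3 and 4 (5.70 and 5.13 CPM, against 11.2 to 14.3 CPM). *Nkx2-1* was highest there, at 72.6 and 85.7 CPM against 53.8 to 70.0 CPM, whereas the sum of the 9 ventral telencephalon markers was lowest in mice 3, 4 and 6 (1511, 1493 and 1530 CPM, against 1774 and 1853 CPM). Summed markers of blood and microglia, like *Gli1*, were lowest in mice 3 and 4 (73.0 and 101 CPM, against 144 to 256 CPM). So were those of endothelium and pericytes (12.2 and 10.7 CPM, against 16.4 to 17.7 CPM). Those of radial glia were lowest in mouse 4 but not in mouse 3 (1692 and 1900 CPM, against 1841 to 1994 CPM). The part of cell types in the pattern was not tested. The pattern was noticed in the values, and with 5 libraries no correlation is given.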
